A study of Mus musculus with 8 samples.

Results

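The 10 intermediate filament genes described here are *Des*, *Vim*, *Synm*, *Nes*, *Krt8*, *Krt18*, *Krt19*, *Lmna*, *Lmnb1* and *Lmnb2*. They were picked by gene symbol from the 19505 genes with a symbol on the arrays, with the row of the highest mean taken where a symbol has several rows. Each of the 10 had a single row. The choice was made with values of the same comparison known, so the differences between groups below are a description and carry no test.

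RNA was measured on 8 arrays of primary mouse muscle cells. The donors were *RhoA* flox/flox mice that carry the Pax7-nGFP transgene. Hindlimb satellite cells were isolated by FACS and grown as myoblasts. They were placed in differentiation medium for 3 days and then received adenovirus for 48 h. The control group received Ad-mCherry (Adeno m-cherry in the labels, 4 arrays) and the other group received Ad-Cre-mCherry (Adeno CRE m-cherry, 4 arrays), so that all 8 arrays carry the floxed alleles, the reporter and a virus. The presence of Cre and the loss of *RhoA* go together in this design and cannot be told apart. The methods describe 3 independent cultures and the labels 4 numbered replicates per group. No source says that the 4 are separate cultures, so errors and p-values measure only the spread between these arrays. The samples are bulk cultures, in which fewer cells of a type and less RNA per cell cannot be told apart.

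Intermediate filaments are ropes of coiled-coil proteins that give cells and nuclei their resistance to stretch. In muscle, desmin links the Z-discs to each other and to the membrane, synemin joins desmin filaments, and vimentin and nestin are the filaments of proliferating and regenerating muscle cells. Keratins are the filaments of epithelia and assemble only as pairs of a type I and a type II chain, such as keratin 18 with keratin 8. Lamins form the meshwork under the inner nuclear membrane. RhoA acts on the actin cytoskeleton, through ROCK kinases and formins, and actin in turn governs transcription through the cofactor MRTF and serum response factor, which binds the CArG box.

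Promoter windows are shown for *Krt18*, the gene with the largest difference among the 10, for *Krt8*, its filament partner and chromosomal neighbour, and for *Synm*, the only other gene of the 10 that was higher with Cre in all 4 replicate numbers. They run from 250 bases before to 50 after the transcription start in RefSeq, build GRCm38.p6. The *Krt18* window is chr15:102027966-102028265 on the + strand, that of *Krt8* is chr15:102004293-102004592 on the - strand, and that of *Synm* is chr7:67759693-67759992 on the - strand. Capitals mark matches to TATAAA, to the AP-1 motif TGANTCA, to the GC box GGGCGG, to the E-box CANNTG, which myogenic factors such as MyoD and myogenin bind, and to the CArG box, searched on both strands.
Krt18: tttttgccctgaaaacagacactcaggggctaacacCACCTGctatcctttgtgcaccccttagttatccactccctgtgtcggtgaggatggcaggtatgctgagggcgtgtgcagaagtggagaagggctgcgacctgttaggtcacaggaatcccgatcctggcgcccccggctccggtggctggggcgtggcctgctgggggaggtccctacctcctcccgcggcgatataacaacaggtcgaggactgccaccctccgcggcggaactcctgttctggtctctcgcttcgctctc
Krt8: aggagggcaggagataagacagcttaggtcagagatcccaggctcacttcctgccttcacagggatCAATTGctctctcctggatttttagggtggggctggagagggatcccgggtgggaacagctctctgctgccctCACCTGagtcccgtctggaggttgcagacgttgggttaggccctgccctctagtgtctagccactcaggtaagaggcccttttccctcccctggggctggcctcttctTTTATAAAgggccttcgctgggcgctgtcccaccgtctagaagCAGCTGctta
Synm: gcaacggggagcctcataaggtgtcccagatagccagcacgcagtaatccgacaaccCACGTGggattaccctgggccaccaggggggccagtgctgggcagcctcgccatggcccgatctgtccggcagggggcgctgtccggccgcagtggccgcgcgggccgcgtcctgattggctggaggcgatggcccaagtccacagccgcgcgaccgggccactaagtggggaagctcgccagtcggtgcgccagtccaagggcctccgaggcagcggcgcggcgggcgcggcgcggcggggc
The *Krt18* window held a single E-box, at position -214, and no other match. The *Krt8* window held 3 E-boxes, at -184, -111 and 41. It also held TATAAA on both strands, in overlapping letters at -3 and -1, across the listed transcription start. The *Synm* window held a single E-box at -193. Across 32851 promoter windows of this length, 72.3% held an E-box, 13.6% TATAAA, 35.7% the GC box, 7.81% the AP-1 motif and 1.63% the CArG box. No window of the 8 genes of the set that have one held the CArG box. These matches are letters in a window and not measured binding.

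*RhoA* itself was lower with Cre. On the log2 scale replicates 1 to 4 stood at 11.16, 11.39, 11.08 and 11.39 under Ad-mCherry and 9.99, 10.87, 10.87 and 10.23 under Ad-Cre-mCherry, a log2 difference of -0.77 (standard error 0.23, two-sided unpaired exact permutation p = 0.0286, the smallest that 4 against 4 can give without pairs). Its adjusted p in limma over 19505 genes was 0.729. Within replicate numbers the difference was -1.17, -0.52, -0.21 and -1.16, so the loss was smallest in replicate 3 and largest in replicates 1 and 4. The cells carried the muscle program in both groups. All 12 myotube markers lay above the median row mean of 4.82. Their summed log2 level ranged from 190.6 to 200.9 under Ad-mCherry and from 185.4 to 198.6 under Ad-Cre-mCherry. Within this list *Myog* (-1.48) and *Myh3* (-1.23) were lower with Cre. Array medians ranged from 4.78 to 4.87. Without detection calls, the distance of a dim row from background is unknown.

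**Figure D1:**
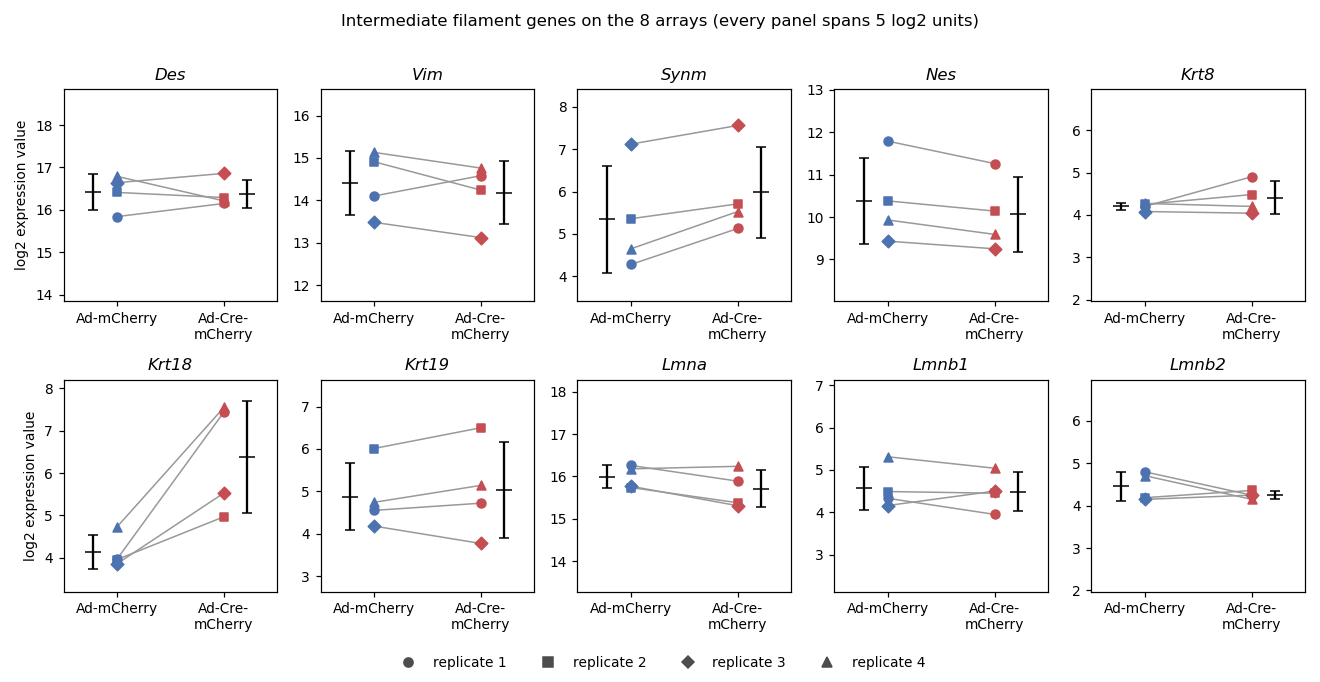
Log2 expression value of the 10 genes on each array, by group. Symbols mark replicate numbers, grey lines join arrays of the same number, bars show mean ± SD (n = 4), and every panel spans 5 log2 units. Only the *Krt18* groups do not overlap, and for *Synm*, *Nes* and *Krt19* the lines are further apart than they are steep.

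*Krt18* was the only gene of the 10 past the thresholds of the study, which ask for a fold change of 1.2 or more together with a p under 0.05 before adjustment. Over all 19505 genes 6.42% passed these thresholds, 2.92% upward and 3.5% downward, and since the set was chosen with this comparison known, nothing is read from the count of 1 upward and 0 downward. At an adjusted p under 0.05 limma called 0 of the 10 and 0% of all genes, and at an unadjusted p under 0.05 it called 1 of the 10 and 6.42% of all genes, 2.92% upward, since every gene under that p also passed the fold of 1.2. Of the 10 log2 differences 4 were above 0 and 6 below, with a median of -0.07 against 0.00 over all genes. The 95% intervals of the other 9 genes span 0 in this fit, which does not use the replicate numbers. With the replicate number as a block the interval of *Synm*, 0.23 to 1.03, does not span 0.

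**Figure D2:**
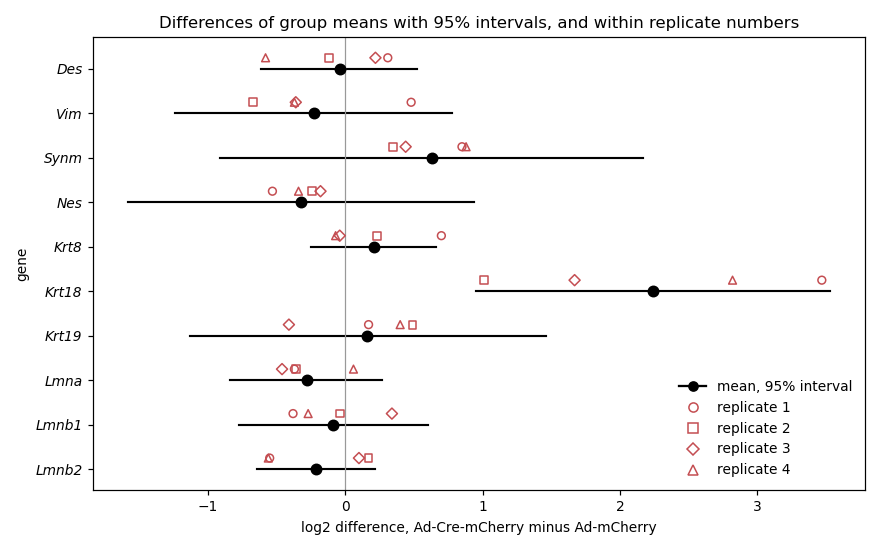
Log2 difference, Ad-Cre-mCherry minus Ad-mCherry, for each of the 10 genes. Black points and lines are the difference of group means and its 95% interval from limma without a replicate block. Open symbols are the differences within replicate numbers 1 to 4. The interval of *Krt18*, 0.95 to 3.53, is the only one that does not hold 0.

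Among the muscle filaments of type III, desmin (*Des*) had nearly the same mean in both groups. Its values in replicates 1 to 4 were 15.84, 16.41, 16.64 and 16.79 under Ad-mCherry and 16.15, 16.29, 16.86 and 16.21 under Ad-Cre-mCherry. The groups overlapped, with Cre higher in replicates 1 and 3 and lower in 2 and 4. The means were 16.42 ± 0.42 and 16.38 ± 0.33 (SD, n = 4), a log2 difference of -0.04 (standard error 0.25, 95% interval -0.61 to 0.52). Within numbers the differences were 0.31, -0.12, 0.22 and -0.58.

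Vimentin (*Vim*), the filament of mesenchymal cells and myoblasts, varied between arrays over a wider range than desmin. It read 14.10, 14.91, 13.48 and 15.13 under Ad-mCherry and 14.58, 14.24, 13.12 and 14.76 under Ad-Cre-mCherry. Replicate 3 was the lowest of each group and replicate 4 the highest. The group means of 14.41 ± 0.76 and 14.18 ± 0.74 (SD, n = 4) differed by -0.23 (standard error 0.45, interval -1.24 to 0.78). Within numbers the differences were 0.48, -0.67, -0.36 and -0.37, so that replicate 1 alone went upward.

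Synemin (*Synm*) showed a shift in the same direction in every replicate number on top of a much larger spread between numbers. Its arrays read 4.28, 5.36, 7.12 and 4.65 under Ad-mCherry and 5.13, 5.71, 7.56 and 5.53 under Ad-Cre-mCherry. Replicate 3 stood well above the rest in both groups, and the groups overlapped. The differences within numbers were 0.85, 0.35, 0.44 and 0.88. The means were 5.35 ± 1.26 and 5.98 ± 1.08 (SD, n = 4), a log2 difference of 0.63 with a standard error of 0.68 (interval -0.91 to 2.17). Without the block it ran from 0.10 without the Ad-Cre-mCherry array of replicate 3 to 1.22 without the Ad-mCherry array of that number. With the replicate number as a block the standard error was 0.18 and the interval 0.23 to 1.03. *Synm* then passed the thresholds of the study as well, which 6.54% of all genes did upward and 8.2% downward under the block.

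Nestin (*Nes*), a type IV filament of muscle progenitors that also persists at neuromuscular and myotendinous junctions, was lower with Cre in every replicate number. It read 11.79, 10.38, 9.43 and 9.93 under Ad-mCherry and 11.26, 10.14, 9.25 and 9.59 under Ad-Cre-mCherry. The order of the replicate numbers was the same in both groups, with 1 highest and 3 lowest, and the groups overlapped. The within-number differences of -0.53, -0.24, -0.18 and -0.34 were small beside the 2.19 log2 units between the means of the highest and the lowest number. The group means were 10.38 ± 1.02 and 10.06 ± 0.88 (SD, n = 4), a difference of -0.32 (standard error 0.56, interval -1.58 to 0.94, and -0.70 to 0.06 with the block). *Nes* was the only gene of the 10 lower in all 4 numbers, and *Synm* and *Krt18* were higher in all 4. Over all genes 11.1% were lower and 9.88% higher in all 4.

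Keratin 18 (*Krt18*), a type I keratin of simple epithelia, gave the largest difference of the 10. The Ad-mCherry arrays of replicates 1 to 4 read 3.97, 3.96, 3.86 and 4.73 and the Ad-Cre-mCherry arrays 7.44, 4.97, 5.53 and 7.55. Every Cre array was above every control array, though the lowest of them, replicate 2 at 4.97, was close to control replicate 4 at 4.73. Groups were apart for 3.75% of all genes, for 1.82% in this direction. The means were 4.13 ± 0.40 and 6.37 ± 1.32 (SD, n = 4), a log2 difference of 2.24 (standard error 0.57, interval 0.95 to 3.53), or 4.73-fold. All 4 control values lay under the medians of their arrays, at an unknown distance from background, so the size of the fold is uncertain. With the replicate number as a block the standard error was 0.34.

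The size of the *Krt18* difference depended on the replicate number. It was 11.1-fold in replicate 1, 2.01-fold in replicate 2, 3.18-fold in replicate 3 and 7.06-fold in replicate 4. Replicates 1 and 4 thus lay above replicates 2 and 3, as did the size of the *RhoA* difference in the same arrays. Within the lower pair the order was reversed. *RhoA* differed by -0.52 in replicate 2 and by -0.21 in replicate 3, whereas the *Krt18* difference was larger in replicate 3. In the fit with array weights, the Ad-Cre-mCherry arrays of replicates 1 and 4 had the lowest weights, 0.598 and 0.808. With 4 numbers a relation between the *RhoA* and *Krt18* differences was not tested. The log2 difference ran from 1.83 without replicate 1 to 2.71 without the Ad-Cre-mCherry array of replicate 2, and *Krt18* stayed past the thresholds of the study in all 12 fits that left out an array or a replicate number. An adjusted p under 0.05 was reached only with the block, where 0.323% of all genes passed, 0.103% upward, and there it was lost without replicate 2, 3 or 4.

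**Figure D3:**
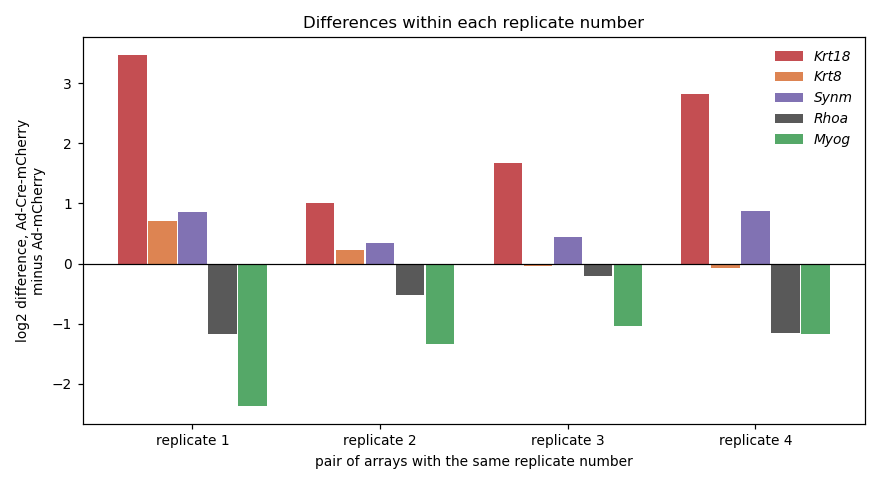
Log2 difference, Ad-Cre-mCherry minus Ad-mCherry, within each replicate number for *Krt18*, *Krt8*, *Synm*, *Rhoa* and *Myog*. The *Krt18* bars stand at 3.47, 1.01, 1.67 and 2.82, while those of *Krt8* reach 0.70 at most and lie just below 0 in replicates 3 and 4.

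Keratin 8 (*Krt8*), the type II chain with which keratin 18 polymerizes, had a smaller difference than its partner. Its values were 4.20, 4.25, 4.08 and 4.27 under Ad-mCherry and 4.90, 4.48, 4.04 and 4.20 under Ad-Cre-mCherry. Cre was higher in replicates 1 and 2 and slightly lower in 3 and 4, and the groups overlapped. The means of 4.20 ± 0.09 and 4.41 ± 0.38 (SD, n = 4) differed by 0.21 (standard error 0.20, interval -0.25 to 0.66). The difference between *Krt8* and *Krt18* was not tested. All *Krt8* values were near the array medians or under them, at an unknown distance from background, and RefSeq lists a *Krt8* pseudogene whose RNA the row may also read, so its value is uncertain.

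Keratin 19 (*Krt19*), a type I keratin that in muscle is found with keratin 8 at the costameres, varied mainly with the replicate number. It read 4.55, 6.01, 4.18 and 4.74 under Ad-mCherry and 4.72, 6.50, 3.77 and 5.14 under Ad-Cre-mCherry. Replicate 2 was the highest and replicate 3 the lowest in both groups. The means were 4.87 ± 0.79 and 5.03 ± 1.13 (SD, n = 4), with a difference of 0.16 (standard error 0.57, interval -1.13 to 1.46) and differences within numbers of 0.17, 0.49, -0.41 and 0.40. Its range between numbers, 2.28, was large among all genes, 2.87% of which had a range at least as wide.

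The genes around *Krt18* were examined next. In the RefSeq order on chromosome 15, build GRCm38.p6, *Krt8* and *Krt18* are neighbours at the edge of the type II keratin cluster. The 5 measured genes on each side, chosen after the *Krt18* values were seen, were *Krt77*, *Krt76*, *Krt4*, *Krt79* and *Krt78* on the *Krt8* side and *Eif4b*, *Tns2*, *Spryd3*, *Igfbp6* and *Csad* on the *Krt18* side. Of these 10 genes 0 passed the thresholds of the study in limma, beside 6.42% of all genes in either direction. With the block 1 did, *Krt78* at -0.43, beside 14.7% of all genes in either direction. Their log2 differences ran from -0.43 to 0.53, the highest being that of *Igfbp6*, an inhibitor of insulin-like growth factors, with a standard error of 0.89.

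**Figure D4:**
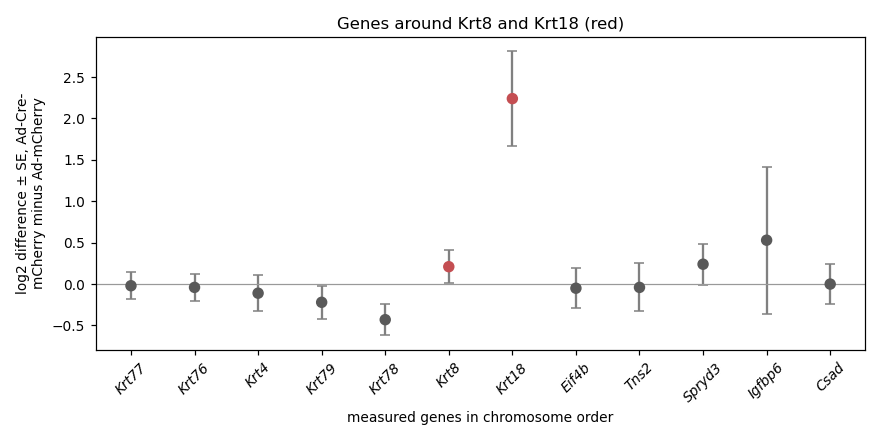
Log2 difference, Ad-Cre-mCherry minus Ad-mCherry, with its standard error for *Krt8* and *Krt18* (red) and the 5 measured genes on each side, in chromosome order and not to distance. *Krt18* stands at 2.24 and the flanking genes between -0.43 and 0.53.

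Among the other keratins no gene was called upward. Of the other 46 keratin genes on the arrays 0 rose and 2 fell at the thresholds of the study, beside 2.92% and 3.5% of all genes, and the median log2 difference was -0.04. Of these genes 39 had a mean below the median row mean, so most lie in the dim range of the arrays. The 2 that fell were *Krt27*, a keratin of the hair follicle (4.09 ± 0.17 and 3.47 ± 0.10, a difference of -0.62, standard error 0.15), and *Krt2*, a keratin of the epidermis (3.44 ± 0.12 and 3.04 ± 0.09, -0.40, standard error 0.14, SD with n = 4). Their adjusted p-values in limma were 0.729 and 0.748, and both are dim. *Krt2* lost its call without replicate 2 (-0.35) or 3 (-0.40), or without the Ad-mCherry array of replicate 2 (-0.36) or 4 (-0.37) or the Ad-Cre-mCherry array of replicate 3 (-0.37). The values ran from -0.79 for *Krt80* (standard error 1.90) to 0.56 for *Krt33b* (standard error 0.31). With the block 1 passed upward, *Krt33b*, and 4 downward, beside 6.54% and 8.2% of all genes. The 4 were *Krt27*, *Krt2*, *Krt78* and *Krt80*. *Krt33b*, *Krt78* and *Krt80* were named after their values were seen.

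The type A lamin gene *Lmna*, which encodes lamins A and C and is the lamin gene mutated in Emery-Dreifuss muscular dystrophy, was slightly lower with Cre in 3 of the 4 numbers. It read 16.26, 15.74, 15.77 and 16.18 under Ad-mCherry and 15.89, 15.38, 15.31 and 16.24 under Ad-Cre-mCherry. The groups overlapped, and replicate 4 went the other way by 0.06. The means were 15.99 ± 0.27 and 15.71 ± 0.44 (SD, n = 4), a difference of -0.28 (standard error 0.25, interval -0.84 to 0.27).

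The B-type lamin genes, whose products stay attached to the nuclear membrane by a lipid tail, were dim and did not separate the groups. *Lmnb1* read 4.33, 4.49, 4.16 and 5.31 under Ad-mCherry and 3.95, 4.45, 4.50 and 5.04 under Ad-Cre-mCherry. Replicate 4 was the highest in both groups. The means were 4.57 ± 0.51 and 4.49 ± 0.45 (SD, n = 4), and the difference was -0.09 (standard error 0.30, interval -0.77 to 0.60). *Lmnb2* read 4.80, 4.19, 4.15 and 4.71 under Ad-mCherry and 4.25, 4.36, 4.25 and 4.15 under Ad-Cre-mCherry. The control arrays of replicates 1 and 4 were above the rest. The means were 4.46 ± 0.34 and 4.25 ± 0.09 (SD, n = 4), and the difference was -0.21 (standard error 0.19, interval -0.64 to 0.22).

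For 9 of the 10 genes the range between the means of the replicate numbers exceeded the difference between groups. The exception was *Krt18*, with a range of 1.68 against a difference of 2.24. The range was widest for *Synm* (2.64), *Krt19* (2.28), *Nes* (2.19), *Krt18* and *Vim* (1.65), against a median of 0.54 over all genes. For *Synm* 1.88% of genes had a range at least as wide, for *Nes* 3.23% and for *Vim* 7%. The numbers were not ordered alike. Replicate 3 was highest for *Synm* and *Des*, replicate 1 for *Nes*, *Krt8* and *Lmnb2*, replicate 2 for *Krt19* and replicate 4 for *Vim*, *Krt18*, *Lmna* and *Lmnb1*. With the replicate number as a block the standard error was smaller for 9 of the 10, for *Nes* 0.17 in place of 0.56 and for *Vim* 0.21 in place of 0.45. For *Lmnb2* it was 0.20 in place of 0.19.

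The profiles nearest to those of the 4 genes with the largest differences were sought by the root mean square difference of mean-centred log2 values over the 8 arrays. Nearest to *Krt18* were *Hid1* (0.544), *Slc44a4* (0.574) and *Slc9a3r1* (0.751), against a root mean square of 1.4 for *Krt18* around its own mean. Their group differences, 1.49, 1.84 and 2.59, follow from that choice, as they were sought over the same 8 arrays. *Hid1* read 7.50, 7.52, 7.74 and 8.55 under Ad-mCherry and 10.20, 8.28, 9.06 and 9.71 under Ad-Cre-mCherry. Nearest to *Synm* were *Ufsp1* (0.317), the stress-induced transcription factor *Atf3* (0.369) and *Clstn2* (0.398), against 1.06 for *Synm* itself. Nearest to *Nes* were *Mttp* (0.102), *Sim1* (0.124) and *Spg21* (0.142), against 0.838. Nearest to *Lmna* were *Dhodh* (0.117), *Rad17* (0.135) and *Uap1l1* (0.144), against 0.347.

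Of the 9 other type III and IV filament genes 0 passed the thresholds of the study in limma, beside 6.42% of all genes, with a median of -0.04. They include the glial, peripheral nerve and lens filaments, and all but *Sync* had a mean below the median row mean. *Sync* encodes syncoilin, which joins desmin to the dystrophin complex. It read 9.79, 11.01, 11.38 and 11.02 under Ad-mCherry and 9.26, 10.47, 11.08 and 10.67 under Ad-Cre-mCherry, lower with Cre in every number, with differences of -0.53, -0.54, -0.30 and -0.35. Its log2 difference was -0.43 with a standard error of 0.44, and 0.17 with the block. There it passed the thresholds downward, as did 8.2% of all genes. *Nefm*, a neurofilament, was the other named by its p, at 0.16 (standard error 0.18).

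The proteins that tie filaments to junctions, the membrane and chaperones form the next list. Of its 21 measured genes 0 rose and 3 fell at the thresholds of the study, 14.3% against 3.5% of all genes downward, with a median of -0.10. The list was written with earlier results of these data known. *Dst*, which encodes the giant linker dystonin, read 13.89, 14.78, 14.45 and 12.85 under Ad-mCherry and 12.71, 13.03, 13.62 and 11.37 under Ad-Cre-mCherry, and was lower with Cre in every number although the groups overlap. Its log2 difference was -1.31 (standard error 0.53, limma adjusted p 0.758, and 0.0396 with the block). Without the block it lost its call without replicate 1 (-1.35) or 2 (-1.16), without the Ad-mCherry array of replicate 1 (-1.34), 2 (-1.05) or 3 (-1.16), or without the Ad-Cre-mCherry array of replicate 1 (-1.32) or 4 (-0.87).

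*Dtnb*, which encodes the dystrophin partner dystrobrevin beta, fell from 6.10 ± 0.29 to 5.27 ± 0.44 (SD, n = 4), by 0.83 (standard error 0.25, limma adjusted p 0.729), without overlap of the groups, as seen for 1.93% of all genes. *Pkp2*, a plakophilin of the desmosome, went from 4.27 ± 0.27 to 3.72 ± 0.12, a difference of -0.56 (standard error 0.18, limma adjusted p 0.729) that lost its call without replicate 1 (-0.49) or 2 (-0.45). All *Pkp2* values lay under the medians of their arrays, at an unknown distance from background. With the block 6 of the 21 passed downward and 0 upward, beside 8.2% and 6.54% of all genes. The other 3 were *Dtna*, the dystrobrevin alpha of muscle (-0.72, block standard error 0.26), *Pkp4* (-0.51, 0.21) and the chaperone *Hspb8* (-0.48, 0.20), named after their values were seen. The desmin chaperone *Cryab* (-0.21, standard error 0.16) and the filament chaperone *Hspb1* (0.39, standard error 0.19) were not called in either fit, and both were named after their values were seen. *Plec*, *Macf1* and *Eppk1* were not analysed here.

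Of 23 partners and processing enzymes of the lamina, with a median of -0.18, 0 rose and 1 fell at the thresholds of the study, beside 2.92% and 3.5% of all genes. The 1 was *Syne1*, which encodes nesprin-1, the link between the nuclear envelope and the cytoskeleton that positions nuclei in muscle. It read 12.72, 11.53, 12.06 and 11.21 under Ad-mCherry and 9.92, 10.45, 11.00 and 10.32 under Ad-Cre-mCherry. The groups did not overlap, as seen for 1.93% of all genes in this direction. Replicate 1 gave the widest gap, -2.80, against -1.08, -1.06 and -0.89 in the others. The log2 difference was -1.46 (standard error 0.35, limma adjusted p 0.729, and 0.0693 with the block), and its call remained in all 12 fits that left out an array or a number. These are the values of the brighter of 2 *Syne1* rows. The dimmer row read 4.20, 4.61, 4.37 and 4.13 under Ad-mCherry and 4.34, 4.36, 4.17 and 4.25 under Ad-Cre-mCherry, a difference of -0.05, and the mean of both rows differed by -0.75 (standard error 0.20), so the rows disagree on the size. With the block 3 genes passed upward, beside 6.54% of all genes. They were *Sun2*, which anchors nesprins in the nuclear envelope (0.46, block standard error 0.20), *Tmem43*, encoding a nuclear membrane protein (0.58, 0.25), and *Banf1*, which binds DNA to the lamina (0.56, 0.20), the last 2 named after their values were seen. *Syne2* was not analysed here.

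**Figure D5:**
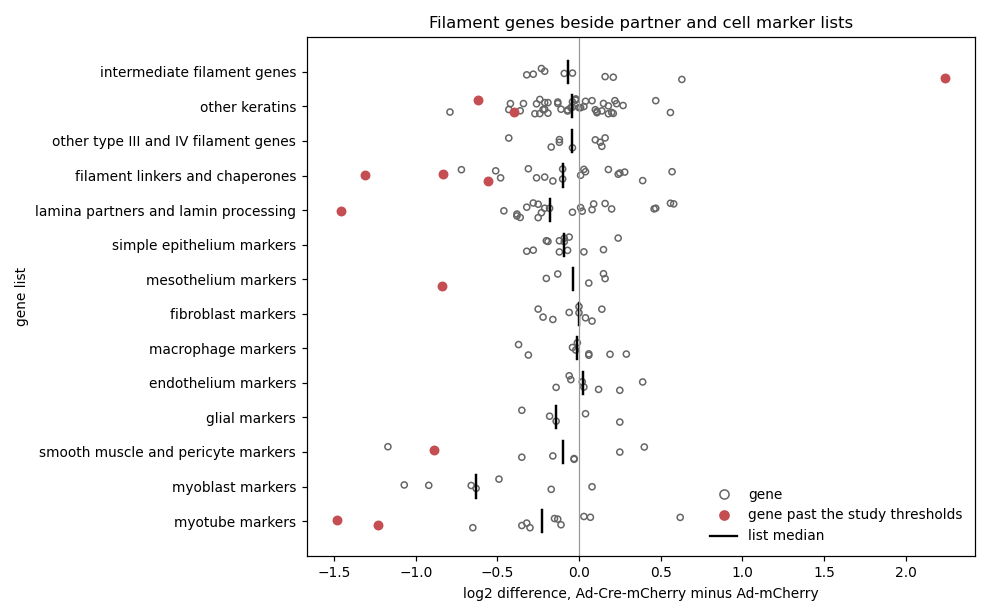
Log2 difference, Ad-Cre-mCherry minus Ad-mCherry, of each gene of the set and of the partner and cell marker lists. Filled points are genes past the thresholds of the study, and vertical bars are list medians. *Krt18*, at 2.24, is the only filled point to the right of 0, and the myoblast list has its median furthest from 0, at -0.63.

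Because keratin 18 is used as an epithelial marker, the levels of other cell types were set beside it. Of 13 simple epithelium markers 0 passed the thresholds of the study in limma, with or without the block, and the median was -0.09. Of all genes 6.42% passed without the block and 14.7% with it. Their summed log2 level ranged from 48.53 to 51.06 under Ad-mCherry and from 46.87 to 49.81 under Ad-Cre-mCherry, ranges that overlap, and their part in the *Krt18* value was not tested. *Epcam* (-0.06, standard error 0.19), *Cdh1* (0.15, 0.20) and *Krt7* (-0.19, 0.56) were not called and were named after their values were seen, and 12 of the 13 lay below the median row mean, at an unknown distance from background. The 2 named by their p were *Esrp1* (-0.32, 0.15) and *Cldn3* (-0.28, 0.16). *Esrp1* was called downward with quantile normalization again (-0.34), with trend and robust eBayes (-0.32) and without the Ad-Cre-mCherry array of replicate 2 (-0.38). *Cldn3* was called downward without the Ad-mCherry array of replicate 3 (-0.37). The keratins *Krt7* and *Krt20* are in this list and among the other keratins.

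Of 6 mesothelium markers, with summed log2 levels of 30.39 to 33.59 and 30.62 to 31.36, 1 fell and 0 rose, beside 3.5% and 2.92% of all genes. It was *Msln*, the surface protein mesothelin, which went from 11.52 ± 0.30 to 10.68 ± 0.47 (SD, n = 4), a difference of -0.84 (standard error 0.26) that dropped to -0.55 and lost its call without replicate 3. *Wt1* stood at 0.16 (standard error 0.15). Of the 9 fibroblast, 9 macrophage, 8 endothelium and 5 glial markers 0 passed in limma in either direction, with or without the block. Of all genes 6.42% passed without the block and 14.7% with it, so little can be read from 0 in lists this short. The medians were 0.00, -0.01, 0.03 and -0.14. Only 3, 2, 0 and 1 of these markers lay above the median row mean, and the rest were at an unknown distance from background. The summed log2 levels were 37.62 to 44.51 and 37.25 to 41.68 for fibroblasts, 35.7 to 38.12 and 35.97 to 37.35 for macrophages, 28.01 to 29.2 and 28.2 to 30.54 for endothelium, and 18.54 to 20.17 and 18.43 to 19.25 for glia. The named markers of these cells ran from -0.37 for *Ptprc* to 0.39 for *Kdr*. In some fits with an array or number left out *Ptprc*, *Fcgr1* or *Kdr* was called, for example *Ptprc* without replicate 3 (-0.51).

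Calls were made among the muscle and pericyte markers. Of 8 smooth muscle and pericyte markers 1 fell without the block, beside 3.5% of all genes. It was *Cspg4*, a proteoglycan of pericytes, which went from 6.70 ± 0.40 to 5.81 ± 0.44 (SD, n = 4). The fall was 0.89 (standard error 0.27), and 0.54 without replicate 1. *Acta2*, the smooth muscle actin that differentiating myoblasts also express, read 18.01, 16.84, 14.66 and 13.48 under Ad-mCherry and 16.73, 15.80, 13.08 and 12.69 under Ad-Cre-mCherry, with replicate 1 highest and 4 lowest in both groups. It was lower with Cre in every number, at -1.17 with a standard error of 1.16, and 0.19 with the block, where the limma adjusted p was 0.0428. The sums of this list were 51.31 to 55.63 and 48.86 to 52.47.

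Of 7 myoblast markers 0 passed without the block and 4 passed downward with it, with a median of -0.63 and sums of 35.64 to 45.16 and 32.05 to 40.29. Of all genes 6.42% passed in either direction without the block, and 8.2% passed downward with it. Examples were the cell cycle kinase *Cdk1* (-0.92, block standard error 0.23) and *Myf5*, a myogenic factor (-1.07, 0.36). *Myf5* was higher with Cre in replicate 3, by 0.48, and without replicate 1 it stood at -0.61 and lost its call under the block. Of 12 myotube markers 2 fell and 0 rose without the block, beside 3.5% and 2.92% of all genes. *Myog*, the factor that drives myoblasts into differentiation, read 10.65, 9.94, 9.66 and 10.57 under Ad-mCherry and 8.28, 8.60, 8.63 and 9.40 under Ad-Cre-mCherry, a difference of -1.48 (standard error 0.30, limma adjusted p 0.680, and 0.0396 with the block). *Myh3*, the embryonic myosin, stood at -1.23 (standard error 0.26, adjusted p 0.0396 with the block). With the block, beside 6.54% of all genes upward and 8.2% downward, 1 passed upward, the muscle creatine kinase *Ckm* (0.62, block standard error 0.19), and 3 downward, the third being titin, *Ttn* (-0.65, 0.22), both named after their values were seen. The part of these markers in the values of the 10 filament genes was not tested.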

How the data were processed

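Intermediate filament RNA was compared on 8 Affymetrix arrays of differentiated *RhoA* flox/flox myoblasts, 4 transduced with Ad-mCherry and 4 with Ad-Cre-mCherry. The authors made the deposited log2 values with RMA in Affymetrix Expression Console, per the labels and the methods, which corrects the background, normalizes arrays by quantiles and summarises probes. The sources used here give neither versions nor a genome build. The methods name Mouse Gene 2.0-ST and TRIzol, whereas the row identifiers follow another Affymetrix design and the labels name a column kit. Values have 2 decimals and run from 2.05 to 19.89. The sources name no step after RMA. Whether one stretched this scale, and with it the log2 differences and folds, is unknown. Of 22206 rows 19572 pair with 1 symbol, 0 with several and 2634 are unnamed, which leaves 19505 genes, each by its brightest row. There were 0 columns outside these samples. The number of arrays limits the precision, and counting depth does not apply.

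From these values each gene was fitted with limma 3.58.1 (lmFit, eBayes, two-sided) in R 4.3.3 without covariates, as the methods state no block, with Benjamini-Hochberg adjustment over all genes. The scripts were tested on simulated data. Members and lists were chosen with earlier results of these data known. Named genes are the 10 members, the 2 genes of each list with the smallest p, any listed gene past the adjusted threshold, *Rhoa*, and the 3 nearest profiles of 4 members. Others are said to be named after their values were seen. After removal of group means, arrays with the same replicate number correlated at 0.516 to 0.623 and others at -0.424 to 0.128. The minimum was 0.1, so the numbers were taken as pairs. The pairs enter the differences within numbers and the fit with the block. The main fit and the permutation test of *RhoA* do not use them. The pairing rests on the values, and no source states it. Alternatives were the block, quantile normalization again, median centring, a filter that drops rows whose mean is under the median row mean, averaging of rows that share a symbol, trend and robust eBayes, array weights, and each array or number left out. Leaving out numbers under the block was added after seeing the data. Where a group was left with fewer arrays, the spread was pooled. Promoters are from RefSeq, and 8 of the 10 members have a window. *Krt19* and *Lmnb1* are named only.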

Additional observations from a re-analysis of the deposited data

Results flagged for a closer look

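Over 39 genes named above, each with 2 groups of 4 arrays, 78 groups were searched for an array far from the other 3, by Dixon's criterion at 95%, and 4 were found. Chance finds such an array in about 1 in 20 groups. *Krt18* in Ad-mCherry replicate 4 read 4.73, with the next array at 3.97, so the control array nearest to the Cre arrays was also apart from its own group. *Myh3* in Ad-mCherry replicate 2 read 16.29, with the next at 16.80. *Nefm* in Ad-Cre-mCherry replicate 2 read 2.55, with the next at 3.11. *Sun2* in Ad-mCherry replicate 1 read 6.18, with the next at 5.46.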

How the results depend on the processing

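The 10 filament genes kept their calls under every alternative without the replicate block. *Krt18* ranged from 1.97 with array weights to 2.28 with quantile normalization again, and 1.83 to 2.71 with arrays left out. Under the leave-outs *Des*, *Vim*, *Nes*, *Krt19* and *Lmnb1* changed sign in some fits, within their intervals. *Krt8*, *Lmnb1* and *Lmnb2* have no value once rows under the median row mean are dropped. With the replicate block 2 members passed the study thresholds upward, *Synm* and *Krt18*, against 1 without it. Of the 99 genes in the 4 lists of other filament genes and partners 4 passed upward and 12 downward, against 0 and 6. Over all genes 1276 and 1599 passed, against 569 and 683. At an adjusted p under 0.05 there were 63 genes, 1 of them a member, *Krt18*, against 0.

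Quantile normalization again gave 2 upward calls in the 4 lists and array weights 1. With rows under the median row mean dropped, 3 list genes passed downward, and 307 and 424 of all genes. With arrays or numbers left out, the lists gave 0 to 2 upward calls and all genes 275 to 702 upward and 397 to 838 downward. *Rhoa* ranged from -0.95 to -0.60 and lost its call without replicate 4 (-0.63). *Col1a1*, at -0.16, ran from -0.35 to 0.04, and was above 0 only without replicate 3, with and without the block. The causes were not tested.

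With the block and a number left out, 2 members passed upward in each fit and 0 to 1 downward, *Vim* without replicate 1. The lists gave 1, 1, 2 and 6 upward and 10, 6, 12 and 10 downward, and all genes 922, 783, 1154 and 1422 upward and 1144, 1131, 1672 and 1516 downward without replicates 1, 2, 3 and 4. At an adjusted p under 0.05 there were 45 genes and 1 member without replicate 1, 14 and 0 without replicate 4, and 0 without replicate 2 or 3. *Synm* stayed past the study thresholds in these 4 fits, and without the block was not called in any fit. Averaging rows changed *Syne1* from -1.46 to -0.75. Precision is limited by 4 arrays a group and, for *Krt8*, *Lmnb1* and *Lmnb2*, by values near the array medians. For *Krt18* it is also limited by control values under the array medians.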
